A study of Arabidopsis thaliana with 18 samples.

Results

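Unstressed Arabidopsis thaliana seedlings of a dominant-negative HSFA6b line were compared with unstressed wild type. The comparison takes the samples titled HSFA6b-RD at control condition (RD, 2 biological replicates) against those titled Col-0 at control condition (WT, 2 biological replicates), 4 of the 18 arrays of the series. The material was whole seedlings of 7 days, raised at 22 °C on 0.5X MS medium containing 1% sucrose. RD is in the labels a dominant-negative HSFA6b line of the Col-0 cultivar, and WT is Col-0 without a transgene named. The labels do not give the promoter, the construct, or whether RD is 1 line or several. Further RD and WT seedlings, also 2 arrays a group, were exposed to 37 °C for 1 h or to 150 mM NaCl for 6 h. By the deposited names, WT replicate 1 of each treatment belongs to a second array series that holds no RD array. An HSFA6b overexpressor (OE) was the third genotype. Nothing says how many plants were pooled into an array, so the spread between replicates may be partly technical.

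Heat shock factors are transcription factors that bind heat shock elements in promoters. The class A members, to which HSFA6b belongs, activate genes for chaperones and other protective proteins. A dominant-negative form interferes with the native factor and, as these factors act in complexes and share binding sites, possibly with related ones. Abscisic acid (ABA) is the plant hormone of drought, salt and seed maturation, and many of its target genes encode dehydrins and other late embryogenesis abundant (LEA) proteins that protect dried cells. No sequences are printed, because the tables used here hold none for these genes.

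Transcripts were measured as MAS5 signals, intensities without a unit that the authors scaled to the same mean on every array, with a call of Present, Marginal or Absent per probe set. Of 22746 probe sets other than controls, 16196 were Present on both RD arrays or on both WT arrays and were tested. On RD replicate 1, 67.09% of probe sets were Present. The share was 72.08% on RD replicate 2, against 72.08% and 73.59% on the WT arrays. Probe sets Present on both arrays of RD but not on both of WT numbered 171, against 1221 Present on both of WT alone. With a Present call required on all 4 arrays, 14804 probe sets remain for testing, and the counts of calls given below were 2 in place of 7 and 265 in place of 303. HSFA6B is the name of no probe set in the annotation used, so no level could be assigned to the targeted gene and the labels were not checked through it.

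RD differed from WT in few probe sets by the stricter of the 2 tests used. A defensin transcript, LCR68, lay 19.6-fold lower, and a probe set described as similar to a heat shock transcription factor lay 151-fold higher. The stricter test, limma over all 18 arrays with the replicate number as a block, called 7 of 16196 probe sets at an adjusted p under 0.05 (0.0432%). Of these, 1 was higher (0.00617%) and 6 were lower (0.0370%). More probe sets entered the test through WT alone (1221) than through RD alone (171), so the direction of the calls partly follows from the filter. With Present required on all 4 arrays, this test called 1 higher and 1 lower. At an unadjusted p under 0.05 the test found 643 probe sets, 3.97% of those tested. The second test, limma on the 4 control arrays alone with replicates as pairs, called 303 (1.87%), of which 76 were higher (0.469%) and 227 lower (1.40%). All 7 calls of the first test were among them. The second test has 1 residual degree of freedom and leans on the spread pooled over probe sets. It called 3 probe sets without the pairing and 42 without the trend of the spread with intensity.

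The median log2 difference of all tested probe sets was -0.005. In the text below, a log2 difference is RD minus WT. A standard error (SE) belongs to the 18-array fit unless the paired fit is named, and "called in the paired fit" means an adjusted p under 0.05 on the 4 control arrays. In whole seedlings, fewer cells of a type and less RNA per cell cannot be told apart.

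**Figure D1:**
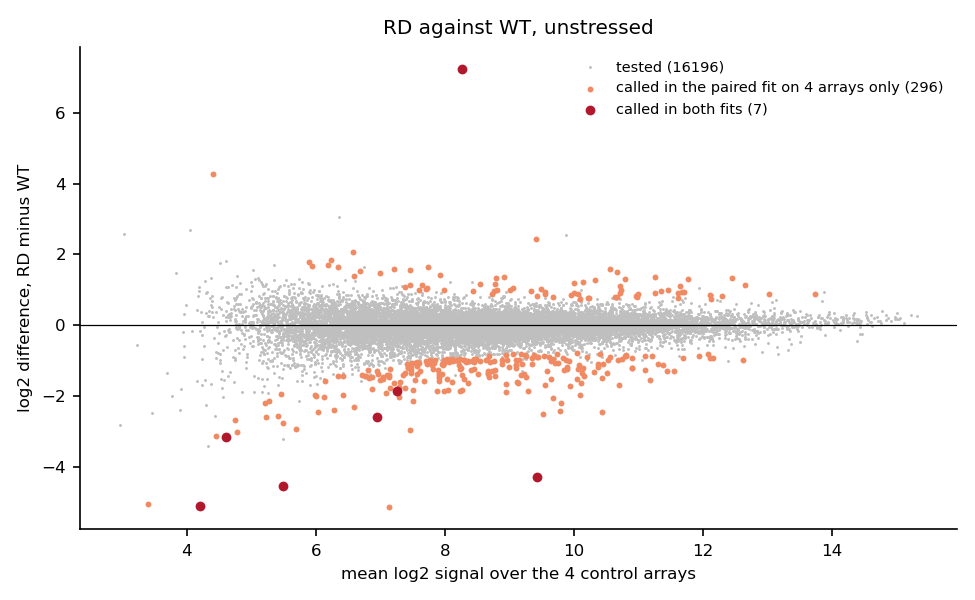
Log2 difference (RD minus WT, unstressed) against the mean log2 signal of the 4 control arrays, 1 point per tested probe set. Grey points are tested, orange points were called in the paired fit alone (296) and red points in both fits (7); more of the orange and red points lie below 0 (227) than above (76).

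The strongest difference belonged to the probe set 258325_at. Its array description reads as a putative heat shock protein similar to a heat shock transcription factor, and the annotation table assigns it no gene. Its signal was 3447.2 and 4120.5 on the RD arrays, against 22.5 and 27.8 on the WT arrays, with all 4 arrays Present. The RD values stood far above the WT values, a log2 difference of 7.24 ± 0.49 (SE, n = 2 each; limma, adjusted p = 2.69e-05). The unstressed OE arrays also had high signals, 1652.1 and 1448.7, so the probe set was high in both HSFA6b transgenic genotypes. Whether it measures HSFA6b, native or from a transgene, was not tested. Under heat shock it read 11842.9 and 9189.9 in RD, against 109.0 and 50.2 in WT, and under NaCl 12182.7 and 12133.5 in RD, against 329.0 and 1306.7 in WT. The groups overlapped in none of the 3 conditions.

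LCR68 (AT2G02130, also PDF2.3) encodes a small cysteine-rich protein of the plant defensin family. Its signal was 123.8 and 197.2 in RD, against 2785.0 and 3371.8 in WT, with all arrays Present and no overlap. It fell by 4.29 ± 0.44 on the log2 scale (19.6-fold; limma, adjusted p = 0.00118). The OE arrays read 3162.9 and 4838.4, in the range of WT or above it. Under heat shock LCR68 read 286.1 and 238.2 in RD, against 2457.7 and 2628.4 in WT. Under NaCl it read 57.0 and 49.4 in RD, against 1063.0 and 333.4 in WT. It was called lower in both treatments as well, with log2 differences of -3.28 and -3.49 (limma, adjusted p = 0.00603 and 0.00392), on arrays that the unstressed comparison does not contain. Left out of the 18-array fit, WT control replicate 2 took the unstressed call with it (log2 -4.07, adjusted p = 0.0546).

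Of the 10 defensins on the list examined, 9 had a probe set and 4 were tested, with a median log2 difference of -1.54. PDF2.1 read 38.5 and 20.4 in RD, against 191.1 and 122.2 in WT, and no RD array was Present. On the signals as read it was 5.45-fold lower in RD. It was called in the paired fit (limma, adjusted p = 0.00366) and not in the 18-array fit (adjusted p = 0.776). LCR69 (PDF2.2) read 3190.7 and 3030.6 in RD, against 5130.9 and 4575.1 in WT, and passed neither test. PDF2.5 gave a log2 difference of 0.03 ± 1.06. The 5 untested defensins, PDF1.2 among them, had no group with both arrays Present.

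**Figure D2:**
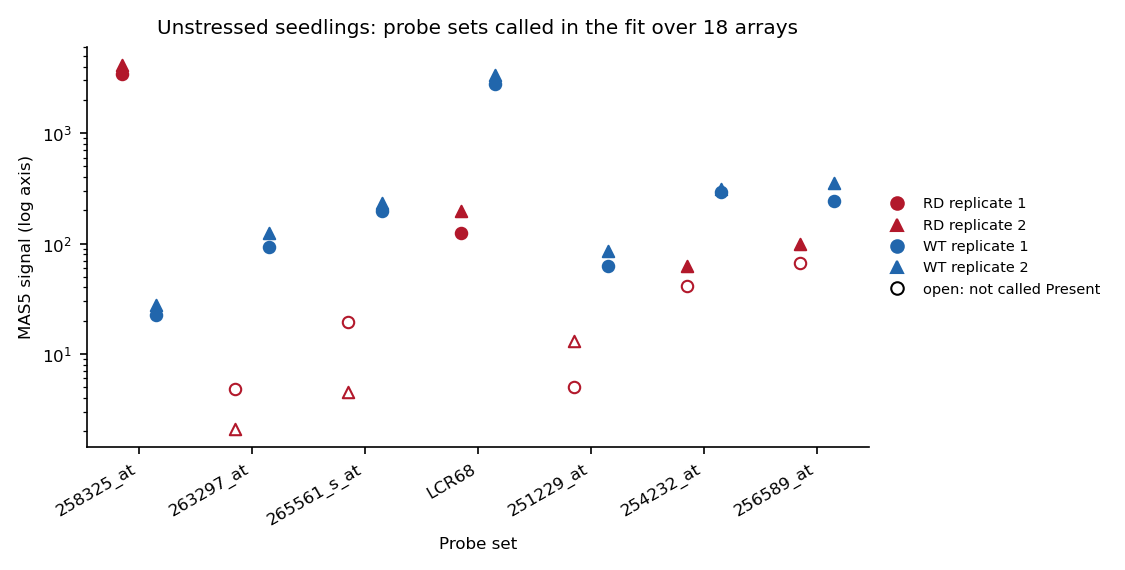
MAS5 signal (log axis) of the 7 probe sets called in the 18-array fit, on the 2 RD arrays (red, left of each pair) and the 2 WT arrays (blue, right). Circles are replicate 1, triangles replicate 2, and open symbols were not called Present; RD lies above WT for 258325_at and below it for the other 6.

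Of the remaining calls, 3 had no Present array in RD. For those a fold is a lower bound, in which the faintest Present signal of each RD array stands in for the RD value where that is lower. The probe set 263297_at, described as an ADP-ribosylation factor, a small GTPase of vesicle traffic, read 4.8 and 2.1 in RD, against 92.7 and 125.6 in WT. It was at least 12.7-fold lower in RD (limma, adjusted p = 0.000131). The probe set 265561_s_at, described as a glycine-rich protein, read 19.3 and 4.5 in RD, against 198.3 and 234.0 in WT, at least 19.7-fold lower in RD (limma, adjusted p = 0.00231). Without WT replicate 2 its adjusted p was 0.0912. Both bounds rest on the faintest Present signals: with every signal below 16 set to 16, the log2 differences were -2.75 for 263297_at and -3.62 for 265561_s_at, smaller than these bounds. Both stayed lower in RD under NaCl (adjusted p = 0.0233 and 0.0225), and 265561_s_at also under heat shock (adjusted p = 0.0299), where 263297_at had an adjusted p of 0.0636. The ending s_at marks a probe set that can bind transcripts of more than 1 gene. The probe set 251229_at, described as a beta-glucosidase, an enzyme that releases sugars from stored conjugates, read 5.0 and 13.2 in RD, against 62.7 and 84.7 in WT. Its bound was 5.86-fold (limma, adjusted p = 0.0442). With signals below 16 set to 16 it lost its call (log2 -2.19, adjusted p = 0.0553).

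Both other calls concerned enzymes. Tyrosine transaminases start the breakdown of tyrosine, which also feeds vitamin E synthesis, and the probe set so described (254232_at) read 41.1 and 62.0 in RD, against 295.0 and 309.5 in WT. It fell by 2.58 ± 0.33 (SE, limma, adjusted p = 0.00968). A cytochrome P450 (256589_at), one of a large family of oxidising enzymes, read 66.3 and 98.9 in RD, against 242.0 and 351.6 in WT. It fell by 1.85 ± 0.27 (SE, limma, adjusted p = 0.0349) and was also called lower under heat shock (log2 -2.75) and NaCl (log2 -1.78). Of both probe sets 1 RD array was Present. These 2 probe sets and 251229_at lost their call when any of WT replicate 1, WT replicate 2 or RD replicate 1 was left out. The first 2 also lost it without RD replicate 2.

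Of the ABA and osmotic stress genes, 5 were lower in unstressed RD by the paired fit alone. The list, chosen with earlier results of these data known, holds 22 genes, of which 16 had a probe set and 15 were tested. None passed the 18-array fit. The paired fit called 5 lower (33.3%, beside 1.40% of all tested probe sets) and none higher, and the other 10 passed neither test, with 4 of the 15 differences above 0. The list's median log2 difference was -0.35, against -0.005 over all tested, and lay between -0.69 and -0.24 with 1 control array left out. Of the list, 8 of the 15 were lower without overlap (17.0% of all tested probe sets were). Present on all 4 control arrays were 13 of the 15. The 5 were ADH, kin1, LTI30, LTI78 and a RAB18-like dehydrin.

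ADH, alcohol dehydrogenase of fermentation, read 151.2 and 131.3 in RD, against 480.4 and 522.7 in WT, a log2 difference of -1.83 ± 0.31 (adjusted p = 0.0572 in the 18-array fit, 0.00148 in the paired fit, limma). The cold- and ABA-inducible kin1 read 1122.2 and 1416.3 in RD, against 2453.6 and 3498.4 in WT (log2 -1.22 ± 0.23; paired fit, limma, adjusted p = 0.00362). Its probe set can bind more than 1 transcript. LTI78, also known as RD29A, is a widely used reporter of the drought and cold response. It read 357.8 and 180.0 in RD, against 650.8 and 647.5 in WT (paired fit, limma, adjusted p = 0.0142). The dehydrin LTI30 read 407.5 and 508.9 in RD, against 749.9 and 902.0 in WT. For each of these 4 genes both RD arrays were below both WT arrays.

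In the salt-treated seedlings 3 of these 4 genes did not lie lower in RD, while ADH had a log2 difference of -0.39. The RAB18-like dehydrin, at -1.09 under control, did not lie lower under NaCl either (log2 0.56, and -0.2 under heat shock). LTI78 under NaCl read 6445.0 and 8783.1 in RD, against 2745.2 and 5480.8 in WT. For kin1 the NaCl signals were 33803.5 and 36055.6 in RD, against 17605.6 and 31631.7 in WT, and its heat shock signals were 2648.9 and 2765.0 in RD, against 6043.7 and 6790.9 in WT. LTI30 read 3654.4 and 4803.9 in RD under NaCl, against 2584.8 and 4149.6 in WT. None of the 3 was called under NaCl, and none of the 303 probe sets of the paired fit passed the test of a change in the RD minus WT difference between control and heat shock or between control and NaCl.

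**Figure D3:**
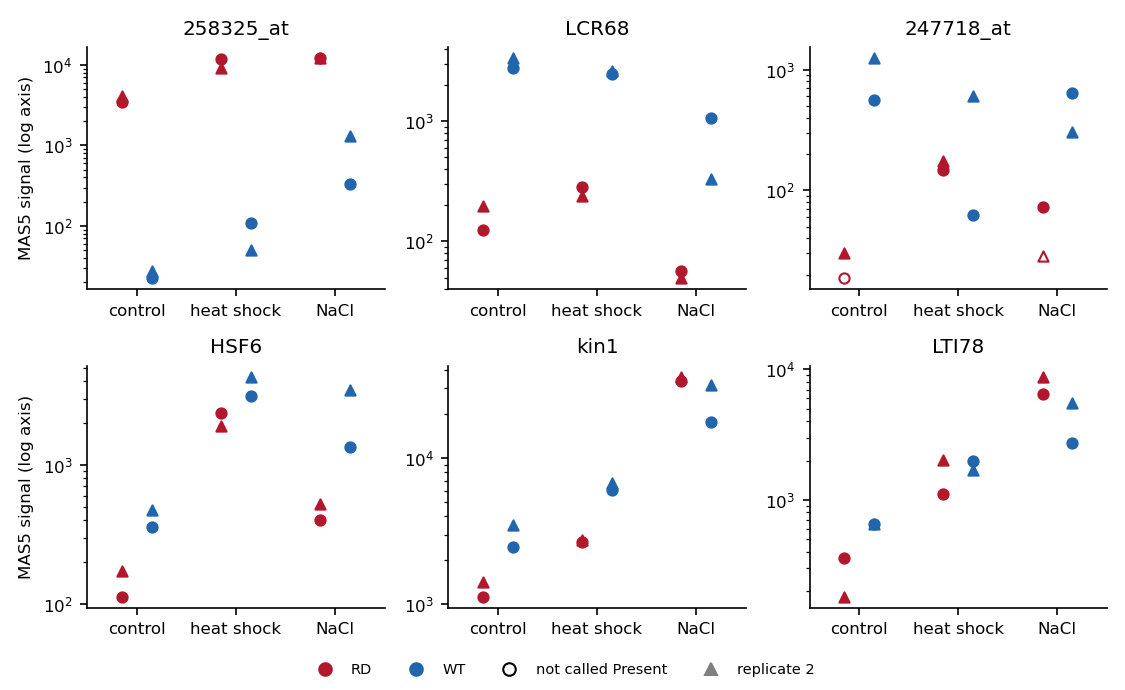
MAS5 signal (log axis) of 6 probe sets under control, heat shock and NaCl, with RD in red left of WT in blue, triangles for replicate 2 and open symbols for arrays not called Present. RD lies above WT for 258325_at and below WT for LCR68 in all 3 conditions; for LTI78 both RD values lie below WT under control and above WT under NaCl.

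LEA proteins and dehydrins, taken as all probe sets so described on the array, held 43 probe sets, 35 of them tested. The paired fit called 11 lower (31.4%, against 1.40% of all tested) and none higher, and the 18-array fit called none. Their median log2 difference was -0.56, and 27 of the 35 differences were below 0. The number Present on all 4 control arrays was also 27, not necessarily the same ones. A member that entered the test through 1 genotype alone tends to be lower in the other, so the shared direction may partly follow from the filter. The LEA gene AT3G53040 read 111.6 and 161.5 in RD, against 283.9 and 815.0 in WT (log2 -1.84 ± 0.43). The probe set 262128_at, another LEA protein, read 503.8 and 583.4 in RD, against 1313.3 and 2390.8 in WT (log2 -1.71 ± 0.46). AT3G15670, a LEA76 homologue, read 263.2 and 257.8 in RD, against 457.8 and 885.6 in WT. LEA4-5 read 140.3 and 167.8 in RD, against 332.2 and 414.2 in WT. WT replicate 2 was the highest array for all 4. The family's median was -0.29 in replicate pair 1 and -0.80 in pair 2. Under heat shock and NaCl the same 35 probe sets had medians of 0.07 and 0.22, and none was called there.

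Lipid transfer proteins, small secreted proteins that carry cuticle lipids and serve in defence, included the probe set with the most negative log2 difference of the comparison. Of 34 such probe sets 19 were tested, and the paired fit called 7 lower (36.8%, beside 1.40% of all tested) and none higher. The family's median was -0.27, with -0.54 in replicate pair 1 and 0.0 in pair 2. Under heat shock and NaCl the same 19 probe sets had medians of 0.3 and 0.08, and none was called there. The probe set 247718_at read 18.7 and 30.3 in RD, with 1 array Present, against 559.5 and 1247.0 in WT. Its log2 difference was -5.13 ± 0.87 (limma, adjusted p = 0.0572 over 18 arrays and 1.25e-06 in the paired fit). The OE arrays read 3713.6 and 2661.8. Under heat shock it read 147.5 and 175.4 in RD, against 62.5 and 609.4 in WT, so the groups overlapped. Under NaCl it read 72.7 and 28.4 in RD, against 635.4 and 302.1 in WT.

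AT1G48750, a further lipid transfer protein, read 416.0 and 739.2 in RD, against 1992.9 and 2324.7 in WT. AT2G18370 read 428.6 and 556.0 in RD, against 1464.6 and 973.0 in WT. Neither pair of groups overlapped, and both were called in the paired fit (limma, adjusted p = 0.000562 and 0.0134) but not over 18 arrays (0.181 and 0.278).

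Enzymes of the cell wall and secreted proteases were next. Expansins and xyloglucan endotransglycosylases loosen and rebuild walls during growth. Of 36 tested, the paired fit called 7 lower (19.4%) and none higher, with a family median of -0.17. The share of all tested probe sets called lower, 1.40%, also stands beside the next 3 families. The xyloglucan endotransglycosylase 252607_at read 217.2 and 441.6 in RD, against 1362.9 and 2221.6 in WT (log2 -2.49 ± 0.62; paired fit, limma, adjusted p = 5.88e-05). The expansin 267158_at read 246.5 and 508.5 in RD, against 708.1 and 1248.4 in WT. Of 25 tested subtilisin-like proteases, 4 were called lower in the paired fit (16.0%), with AT4G21650 at 40.0 and 29.1 in RD, against 126.3 and 250.7 in WT. Of 20 GDSL lipases, 2 were called lower (10.0%). Of 121 tested cytochromes P450, 5 were called lower (4.13%) and none higher. One described as similar to CYP91A2 (253073_at) read 1373.7 and 1339.1 in RD, against 4159.3 and 3739.8 in WT.

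Galactinol synthases make the precursor of raffinose sugars, which accumulate in stressed and drying tissue. Both tested probe sets of 7 were called lower in the paired fit, beside 1.40% of all tested probe sets. The probe set 264940_at read 26.3 and 39.4 in RD, where neither array was Present, against 111.6 and 141.8 in WT. On the signals as read it was 3.91-fold lower (paired fit, limma, adjusted p = 0.0126). The probe set 263320_at read 456.9 and 652.0 in RD, against 854.9 and 1169.9 in WT. The temperature-induced lipocalin TIL, a membrane-protecting protein, read 1529.9 and 1340.5 in RD, against 3208.1 and 3607.4 in WT (log2 -1.25 ± 0.21; adjusted p = 0.0572 over 18 arrays and 0.00372 in the paired fit, limma). TIL was called lower in RD under NaCl (adjusted p = 0.00996).

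Further probe sets called lower in the paired fit were picked after their values were seen. The potassium channel KAT1, which drives potassium uptake into guard cells, read 127.4 and 58.4 in RD, against 500.0 and 288.8 in WT (log2 -2.14 ± 0.38; paired fit, limma, adjusted p = 0.00111). A myo-inositol 1-phosphate synthase (263433_at), which supplies inositol to galactinol synthesis, read 505.2 and 768.6 in RD, against 1724.7 and 1837.2 in WT. SAG29, a sugar transporter gene of senescing leaves, read 297.8 and 224.6 in RD, against 938.6 and 965.9 in WT. All 3 were free of overlap.

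Among heat shock genes, 258325_at apart, none passed the 18-array fit. Of 21 heat shock factors on the list, 4 were matched and tested. HSF6, in the older numbering of the array descriptions and not a name of HSFA6b there, read 112.5 and 173.0 in RD, against 357.9 and 477.7 in WT. Its log2 difference was -1.57 ± 0.32 (limma, adjusted p = 0.165 over 18 arrays, 0.00365 in the paired fit). Under NaCl it was called lower in RD, at 398.6 and 524.2, against 1334.7 and 3452.5 in WT (limma, adjusted p = 0.00899). HSF4 read 108.5 and 144.0 in RD, against 181.0 and 299.7 in WT, and passed neither test. HSF1 gave -0.31 ± 0.39 and HSF3 0.11 ± 0.28. By description, 19 heat shock factor probe sets were tested, and the paired fit called 1 higher, which was 258325_at, and 2 lower, HSF6 and 245800_at. Of all tested probe sets it called 0.469% higher and 1.40% lower. The family's median was 0.09.

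Small heat shock proteins hold unfolding proteins in solution and are barely expressed without stress. Of 17 on the list, 14 were matched and 10 tested. All 10 log2 differences were below 0, with a median of -0.77. Of the 10, 6 were Present on all 4 control arrays. A member that entered the test through 1 genotype alone tends to be lower in the other, so the shared direction partly follows from the filter. By description 14 probe sets were tested, of which 3 lay above 0, with a median of -0.58 and a highest difference of 1.13. None of the 10 was called over 18 arrays and 1 was in the paired fit (1.40% of all tested were called lower). That one, HSP17, read 67.4 and 194.0 in RD, against 133.9 and 560.4 in WT, so its groups overlapped while RD was the lower of each replicate pair. HSP17.6A read 23.3 and 39.4 in RD, against 51.5 and 156.7 in WT, without overlap (paired fit, limma, adjusted p = 0.0729). The list's median ran from -1.38 to -0.18 when 1 of the 4 control arrays was left out, closest to 0 without WT replicate 2. Under NaCl the median of the 10 was -1.88 and 3 were called lower in RD, where 0.488% of all tested probe sets were. Under heat shock, HSP17 reached 47558.9 and 31438.1 in RD and 52673.6 and 49210.8 in WT.

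Of 28 genes for HSP70, HSP90, HSP100 and co-chaperones, 11 were tested, with a median of -0.13 (-0.50 to 0.01 with 1 control array left out). The paired fit called 1 of the 11 lower, beside 1.40% of all tested probe sets. HSP70 read 168.6 and 283.9 in RD, against 415.5 and 658.8 in WT (log2 -1.26 ± 0.31; adjusted p = 0.363 over 18 arrays, 0.00717 in the paired fit, limma). The constitutive hsc70.1 read 13779.2 and 12933.4 in RD, against 9542.8 and 10580.5 in WT, and passed neither test. By description 14 HSP70 probe sets were tested, with a median of -0.11 and 12 differences below 0. The paired fit called 2 of them lower (14.3%) and none higher, and the 18-array fit called none. The lowest was 264648_at, described as a luminal binding protein (log2 -3.0). It read 14.6 and 6.4 in RD, where neither array was Present, against 40.1 and 148.7 in WT. Of 8 tested HSP90 and HSP100 probe sets by description, none was called in either fit. No DnaJ probe set of 39 tested was called.

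The DREB and CBF factors, activators of drought and cold genes, had 5 members on the array and 3 tested, none of them called. DREB2A read 118.3 and 107.9 in RD, against 152.5 and 201.3 in WT, with no overlap and a log2 difference of -0.63 ± 0.28. DREB1C read 178.4 and 122.1 in RD, against 92.9 and 102.0 in WT. The CBF1-like probe set read 47.8 and 39.5 in RD, against 27.7 and 28.4 in WT. CBF1 and DREB2B had no group with both arrays Present. Of the ABA synthesis and signalling list, 5 were tested and none was called. ABI1, a phosphatase that restrains ABA signalling, gave 0.00 ± 0.39 and ABF3, a transcription factor of the ABA response, -0.17 ± 0.47.

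**Figure D4:**
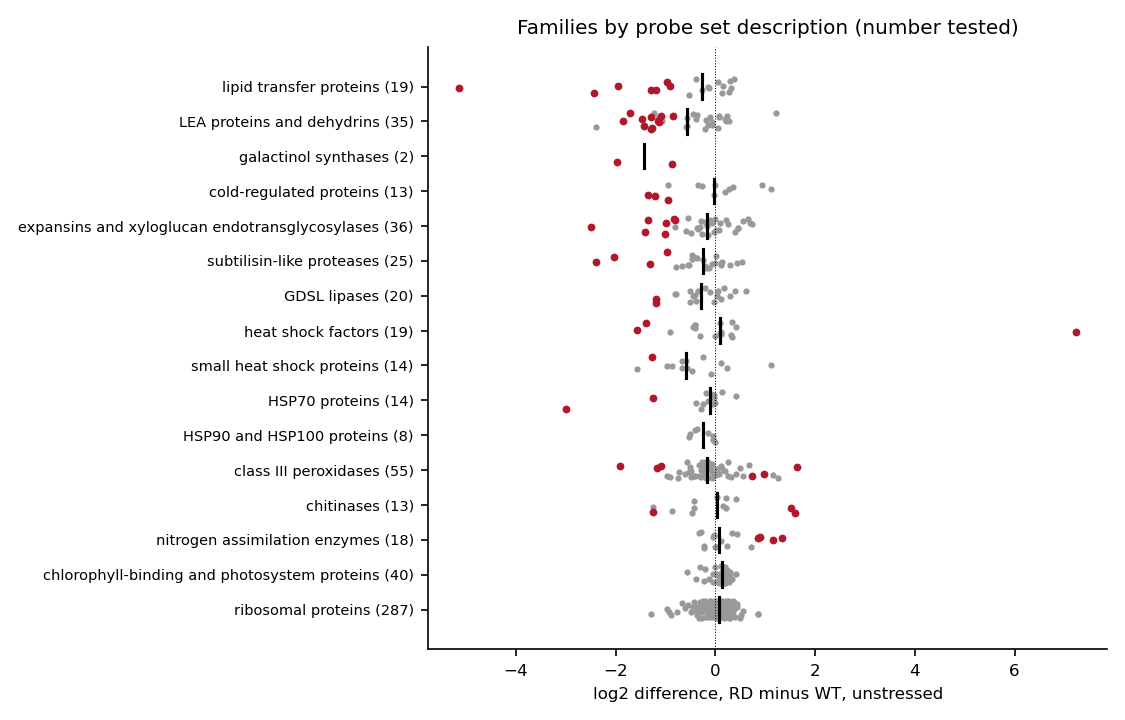
Log2 difference (RD minus WT, unstressed) of the tested probe sets of 16 families, with the number tested in brackets. Red points were called in the paired fit on 4 arrays, grey points were not, and black bars are medians; the red points of the LEA and lipid transfer families lie below 0 and those of nitrogen assimilation above.

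Transcripts higher in RD included secreted defence proteins. AT4G07820, a pathogenesis-related protein, read 193.1 and 197.9 in RD, against 39.8 and 54.7 in WT, where neither array was Present. On the signals as read it was 4.19-fold higher in RD (limma, adjusted p = 0.163 over 18 arrays and 0.00407 in the paired fit). The class III peroxidase AT5G64120, an enzyme of the cell wall, read 327.6 and 432.2 in RD, against 110.1 and 131.0 in WT (log2 1.65 ± 0.33). It was also called higher in RD under heat shock, at 332.7 and 362.2, against 100.1 and 89.2 in WT (limma, adjusted p = 0.0264), where 0.179% of all tested probe sets were called higher. Chitinases cut fungal walls, and AT2G43590 of that family read 2393.6 and 3141.7 in RD, against 839.9 and 1100.7 in WT. Its relative CHI read 218.7 and 304.7 in RD, against 62.9 and 115.4 in WT. In unstressed OE, the log2 difference from WT was 1.6 for CHI, as in RD, and 0.84 for AT2G43590. It was 0.42 for AT5G64120 and -0.37 for AT4G07820.

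These families moved in both directions. Of 55 tested class III peroxidases, the paired fit called 3 higher (5.45%) and 3 lower (5.45%), beside 0.469% and 1.40% of all tested probe sets. AT5G47000, one of those called lower, read 52.3 and 93.5 in RD, against 227.0 and 307.6 in WT. Of 13 tested chitinases it called 2 higher and 1 lower, the basic chitinase 256243_at with 131.4 and 291.3 in RD, against 413.6 and 520.5 in WT. A glutathione transferase probe set, 262119_s_at, read 1720.6 and 4034.5 in RD, against 851.7 and 886.4 in WT (paired fit, limma, adjusted p = 0.0056). Its log2 difference was 1.6 in RD and, for OE minus WT, 1.17. Of the salicylate and defence list 4 were tested and none called, and PR-5 read 39.2 and 29.7 in RD, against 80.2 and 73.5 in WT.

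Nitrogen assimilation enzymes were the family with most calls above 0 relative to its size. Of 18 tested, the paired fit called 4 higher (22.2%, against 0.469% of all tested) and none lower, and the 18-array fit called none. Nitrate reductase 1 (259681_at), the entry step of nitrate assimilation, read 9880.7 and 7959.8 in RD, against 3686.1 and 3333.8 in WT (log2 1.34 ± 0.49). A glutamine-dependent asparagine synthetase (252415_at) read 12682.0 and 7303.8 in RD, against 6035.9 and 3118.3 in WT. A second asparagine synthetase (247218_at) read 2295.8 and 4904.0 in RD, against 1607.9 and 1995.9 in WT. Glutamate dehydrogenase 2 (250580_at) read 8019.4 and 4412.2 in RD, against 3852.6 and 2804.9 in WT. None of these 4 pairs of groups overlapped. The family's median was 0.07. Under heat shock and NaCl the same 18 probe sets had medians of 0.43 and 0.2, and none was called there. In the order given, the 4 had log2 differences of 1.14, -0.41, 2.07 and -0.68 under heat shock. Under NaCl they had -0.01, 0.62, 1.03 and 0.16. Proline oxidase (257315_at), the first enzyme of proline breakdown, was picked after its values were seen and read 6979.9 and 2244.0 in RD, against 2240.7 and 1043.3 in WT.

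By the rule for named genes, the 12 higher and 12 lower single-gene probe sets with the smallest p and no overlap were also drawn. The 12 higher had log2 differences of 0.73 to 2.07, and their adjusted p in the 18-array fit ran from 0.134 to 0.739. The 12 lower, LCR68 apart, ran from -2.97 to -1.10, with adjusted p of 0.0572 to 0.183. AGL16, a MADS-box factor, was among the higher with 614.6 and 541.3 in RD, against 318.8 and 306.4 in WT. PWD, a starch-phosphorylating kinase, was among the lower with 80.0 and 75.7 in RD, against 274.6 and 179.3 in WT.

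Much of the seedling's transcript pool passed no test. Of 287 ribosomal protein probe sets, 40 of chlorophyll-binding and photosystem proteins and 37 of histones, none was called in either fit, with medians of 0.07, 0.14 and 0.13. Actin 2 read 13784.5 and 12889.1 in RD, against 11841.1 and 12097.0 in WT. UBQ10, another common standard, read 15224.7 and 13241.2 in RD, against 12878.4 and 13423.8 in WT. The 4 such standards that were tested gave log2 differences of 0.11 to 0.37, with a median of 0.23 as deposited and 0.14 after quantile normalization. None of the tested members of the auxin, flavonoid, circadian clock, touch, root, root hair, cell division and antioxidant lists was called. These lists do not hold every such gene. Outside them the paired fit called, for example, 247354_at, described as a flavonol synthase, lower (log2 -0.99). It called 267461_at and 264016_at, both described as auxin-regulated, higher (log2 0.93 and 1.47). The flavonol enzyme FLS read 86.0 and 97.4 in RD, against 148.0 and 225.3 in WT, and the stress zinc finger factor Zat12 29.8 and 95.8 in RD, against 67.0 and 202.6 in WT. Of the jasmonate list, the paired fit called Vsp1, a vegetative storage protein, with 903.6 and 1740.5 in RD, against 3126.7 and 2724.9 in WT.

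Markers of seedling tissue were measured in both genotypes. The root factors SCARECROW1 and SHR were Present on all 4 arrays, SCARECROW1 at 558.3 and 709.4 in RD and 574.9 and 738.7 in WT. RBCS, the small subunit of the carbon-fixing enzyme, read 43741.1 and 30479.2 in RD and 35468.5 and 34130.1 in WT. Of 4 probe sets of flower genes on the list, AGAMOUS and AP3 were Present on no control array of either genotype. The 2 tested ones were Present on all 4 control arrays, with a median log2 difference of -0.34. Both were lower in RD without overlap, as were 17.0% of all tested probe sets, and neither was called in either fit. All 4 probe sets of 2S albumin seed storage proteins were Present on no control array. The other 3 of 7 probe sets on the seed storage list were Present on all 4. Cruciferin, another seed storage protein, varied between replicates, with 4533.7 and 1144.9 in RD, against 83.3 and 1809.8 in WT. It was not called, and the part of remaining seed transcripts in the LEA differences was not tested.

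The heat shock and NaCl arrays of RD and WT share no array with the unstressed comparison. In each treatment, WT replicate 1 belongs to the second array series and both RD arrays do not. Whether that affected the shares below was not tested. Of the 227 probe sets called lower in unstressed RD by the paired fit, 177 (78.0%) were also below 0 under heat shock, and 195 (85.9%) under NaCl. Among all 8211 tested probe sets below 0 under control, the shares were 49.5% and 58.2%. Their median was -1.26 under control, -0.67 under heat shock and -0.75 under NaCl. In both treatments 157 of the 227 were below 0 (69.2%, against 32.6% of all). The 18-array fit called 16 of them lower under heat shock and 23 under NaCl, where it called 0.315% and 0.488% of all tested probe sets lower.

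The 76 probe sets called higher in the paired fit carried over less under heat shock. There 37 (48.7%) were above 0, against 52.1% of all tested probe sets above 0 under control, with a median of -0.04. Under NaCl 59 (77.6%, against 53.3%) were above 0, with a median of 0.35. The 18-array fit called 4 of the 76 higher under heat shock and 1 under NaCl, where it called 0.179% and 0.0247% of all tested probe sets higher. In both directions together it called 0.494% of all under heat shock and 0.512% under NaCl. Restricted to probe sets Present on all 4 control arrays, the 190 lower ones shared their sign under heat shock in 78.9% and under NaCl in 86.3%. The 69 higher ones did so in 46.4% and 75.4%.

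**Figure D5:**
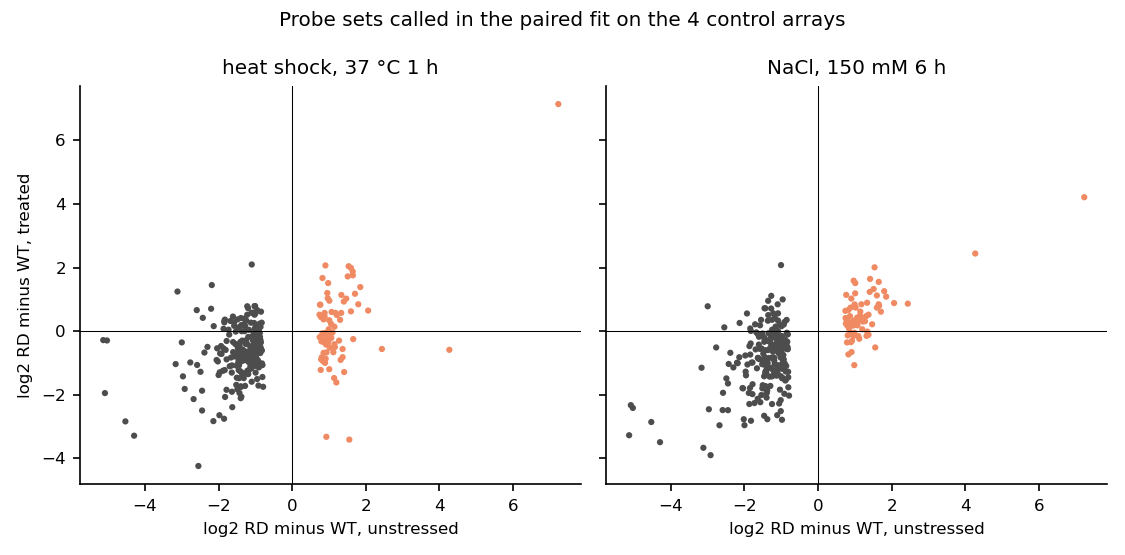
Log2 difference (RD minus WT) under heat shock (left) and NaCl (right) against that under control, for the 303 probe sets called in the paired fit on the control arrays; orange points were higher and dark points lower under control. Of the dark points, 177 of 227 lie below 0 under heat shock and 195 under NaCl; of the orange points, 37 of 76 and 59 of 76 lie above 0.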

How the data were processed

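Whole-seedling RNA, 10 µg per labelling, was hybridised to an Affymetrix array of 22810 probe sets, 64 of them controls. Per the submitters' processing notes the authors used MAS5 (version not stated there). They deposited, per the file headers, an intensity (the signal), a detection p-value and a detection call for each probe set. The intensity is linear and was scaled before deposit, since the mean trimmed by 2% at each end was 500.0 to 500.1 on every array; a value table of the series held the same signals.

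A floor of 0.1 was set before the log2 step; no tested value reached it. The highest detection p of a Present call was 0.0474. The main model was run in limma 3.58.1 under R 4.3.3 (eBayes used a trend with intensity) on 18 arrays, with the 9 group means and the replicate number as terms (8 residual and 5.13 prior degrees of freedom). The paired fit, an alternative to it, used the 4 control arrays alone (1 residual and 10.57 prior). P values were adjusted by Benjamini-Hochberg over all tested probe sets. The scripts were tested on simulated data. Arrays have no counting depth, so their number limits the precision; the lowest Present signal on the 4 arrays was 6.2 to 11.7.

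By the platform's annotation, 13513 probe sets carried 1 gene symbol, 503 carried several and 8730 had none, and 13484 were matched to current names by gene number. Of the 261 genes on 21 lists, many had no named probe set, so further members were named from the array descriptions. The members, the lists and the 28 families by description were chosen with earlier results of these data known. Named were all calls of the 18-array fit, the 12 higher and 12 lower single-gene probe sets of smallest p without overlap, the 6 of each direction with the largest difference, and up to 4 members of each list or family by size of the statistic. Alternatives covered the block, the arrays in the fit, the scaling, the filter, the floor, the trend and leaving out each array. Python 3.11.15 with pandas 2.3.3, numpy 2.4.6 and matplotlib 3.10.9 read files and drew figures.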

Additional observations from a re-analysis of the deposited data

Results flagged for a closer look

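The RD minus WT difference changed between control and a treatment for 1 of 16196 probe sets in each treatment (interaction terms of the 18-array fit). The first, 249139_at, is described as a Cys2/His2-type zinc finger protein. It read 158.0 and 121.9 in RD, against 173.6 and 141.8 in WT without stress, and 1688.8 and 1280.0 in RD, against 7220.5 and 7609.7 in WT under heat shock. The change of the difference was -2.16 ± 0.27 on the log2 scale (SE; limma, adjusted p = 0.0285). The second, IQD19 (245574_at), belongs to a family of calmodulin-binding proteins. It read 160.3 and 153.9 in RD, against 159.7 and 145.5 in WT without stress, and 5.0 and 6.2 in RD, against 66.6 and 65.9 in WT under NaCl, where neither RD array was Present. Its change was -3.62 ± 0.43 (SE; limma, adjusted p = 0.0183). With 2 samples a group, no sample was tested for standing apart from its group.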

How the results depend on the processing

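For RD against WT under control, the 18-array fit called 7 probe sets. It called 4 with no replicate block, 303 on the 4 control arrays with the replicate block, 369 on the 6 control arrays, 33 without 3 arrays that the deposited names place in a second array series, 12 after quantile normalization and 2 with Present calls required on all 4 control arrays, which leaves out the probe sets absent in RD. The 3 arrays of the second series were replicate 1 of WT under heat shock and replicate 1 of WT and of OE under NaCl. With a replicate block within each treatment, added after seeing the data, the 18-array fit called 11. With 1 control array left out it called 2 to 8, fewest without WT replicate 2, where 2 of the 7 kept their call. No named probe set with a call changed direction under any of these. Under heat shock 80 were called, 32 with no replicate block, 532 without the second series, 43 with Present on all 4 control arrays, 748 with the block within each treatment, and 8 to 525 with 1 array left out. Under NaCl 83 were called, 193 without the second series, 161 with the block within each treatment, and 27 to 92 with 1 array left out. The paired fit on 4 arrays called 303. It called 3 with no replicate block, 139 with no filter and 42 without the intensity trend. It called 228 after quantile normalization and 265 with Present on all 4 arrays. In the fit on 6 control arrays, leaving out 1 array gave 784 calls without RD replicate 1, 1905 without RD replicate 2, 173 without WT replicate 1 and 107 without WT replicate 2, 94 to 296 of them shared with the 303. Replicate numbers pair samples only as a hint from the data. Differences between replicates correlated across probe sets at 0.42 between RD and WT controls, at -0.07 under heat shock and at 0.32 under NaCl, and at -0.09 to 0.2 between treatments. Replicate differences had an SD across probe sets of 0.55 in RD and 0.459 in WT under control, against 0.448 to 0.87 in RD and WT under treatment. The causes of these differences between counts were not tested beyond the arrays and terms each fit used. Dim probe sets rest on signals near background.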
